A study of Drosophila melanogaster with 9 samples.

Results

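The genes slouch (slou, also called S59), Pox meso (Poxm) and Krüppel (Kr) encode transcription factors that mark subsets of the body wall muscles of the Drosophila melanogaster embryo, and their transcripts were followed on 9 Affymetrix Drosophila Genome 2.0 arrays. The members were the probe sets annotated with exactly 1 gene symbol among these genes, which gave 4 of the 16377 probe sets on the array and 3 of the 10563 genes that had such a probe set. The gene slou (probe set 1629368_at) and the gene Kr (1629753_at) had 1 each, and Poxm had 2. Each value is a log2 signal after RMA, the summary step that corrects background, normalizes between arrays and combines the probes of a probe set.

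RNA came from cells sorted by fluorescence from stage 13 embryos, collected over 2 h and aged for a further 8 h at 25 °C. The S59RFP group carried the transgene slouch-RFP, also written S59ME-RFP, in which sequence of slou drives a red fluorescent protein. The apGFP group carried apterous-GFP, also written apME-GFP, in which sequence of the LIM-homeodomain gene apterous (ap) drives a green one. The twi-actin-GFP group carried twist_actin-GFP, with actin and GFP under the promoter of the mesodermal bHLH gene twist (twi), and was the group against which the study set the other two. All 9 samples are labelled somatic mesoderm. Each group had 3 arrays, each with a sort, a labelling and a hybridization of its own, and whole plates of embryos were pooled in a sort. Purity on resorting was 87% for S59RFP, 74% for apGFP and 95% for twi-actin-GFP, so that every group held unmarked cells. Strains and further alleles are not given in the sources used here.

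Each larval body wall muscle is founded by a single founder cell, which fuses with fusion-competent myoblasts. Founder cells arise by asymmetric division of progenitors, and each expresses a combination of transcription factors, the identity factors, that sets the size, position and attachment of the muscle it seeds. The factor Slou is a homeodomain protein of the NK class needed for several muscles. Poxm is a paired-domain protein of the Pax family that acts in early somatic mesoderm and in ventral muscles, partly in the same muscles as Slou. Kr is a zinc finger protein best known as a gap gene product of the early embryo, and in muscle it separates the fates of sister founder cells. All 3 genes are also active outside muscle, Kr and slou in parts of the nervous system among other places. In bulk samples of this kind a lower share of cells that express a gene and less RNA per cell cannot be told apart.

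The groups were not equally uniform. Within twi-actin-GFP the arrays correlated at r = 0.995 to 0.998 across probe sets. In the S59RFP group replicate 2 correlated with the other S59RFP arrays at 0.970, against 0.998 between replicates 1 and 3, and in the apGFP group replicate 3 correlated with the others at 0.984 and 0.986, against 0.996 between replicates 1 and 2. The 2 arrays correlated with each other at 0.986, above the 0.970 of S59RFP replicate 2 with its own group, and their deviations from their group means were correlated across probe sets (r = 0.67). Nothing in the labels sets them apart, and whether their labels are as intended cannot be told from the files. Comparisons between S59RFP and apGFP rest on both labels, and main results are given with and without these arrays. The remaining S59RFP arrays correlated with the remaining apGFP arrays at 0.996 to 0.997, about as high as within each reporter. Array medians ran from 4.47 to 4.61 and lower quartiles from 3.36 to 3.64. RMA gives every probe set a value, also where a transcript may be missing from the cells.

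The slouch transcript separated both muscle reporters from twi-actin-GFP and did not separate the muscle reporters from each other. On S59RFP arrays slou stood at 10.73, 9.97 and 10.77, on apGFP arrays at 10.77, 10.44 and 10.40, and on twi-actin-GFP arrays at 7.39, 8.20 and 8.33. The lowest muscle reporter array, S59RFP replicate 2, still lay 1.64 above the highest twi-actin-GFP array. Group means were 10.49 ± 0.45 for S59RFP, 10.54 ± 0.20 for apGFP and 7.97 ± 0.51 for twi-actin-GFP (SD, n = 3 each).

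Against twi-actin-GFP, slou rose by 2.52 ± 0.29 on S59RFP (SE, 5.74-fold, 95% interval 3.63 to 9.06, limma, adjusted p = 0.00034). On apGFP it rose by 2.57 ± 0.29 (5.93-fold, 95% interval 3.76 to 9.37, limma, adjusted p = 0.000308). Only 34 of the 16377 probe sets had a larger increase on S59RFP and 33 on apGFP. Without S59RFP replicate 2 and apGFP replicate 3 the differences were 2.78 and 2.64. S59RFP cells were sorted by a reporter with slou sequence, so the slou rise on S59RFP is not independent of the sort. The mean slou signal on arrays labelled S59RFP was not above that on arrays labelled apGFP. The difference S59RFP minus apGFP was -0.05 (95% interval -0.71 to 0.61, limma, adjusted p = 0.996), an interval that leaves room for a ratio of 0.612 to 1.53. Without S59RFP replicate 2 and apGFP replicate 3 this difference was 0.15. Both comparisons against twi-actin-GFP use the same 3 twi-actin-GFP arrays, and this holds for every gene that follows.

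**Figure D1:**
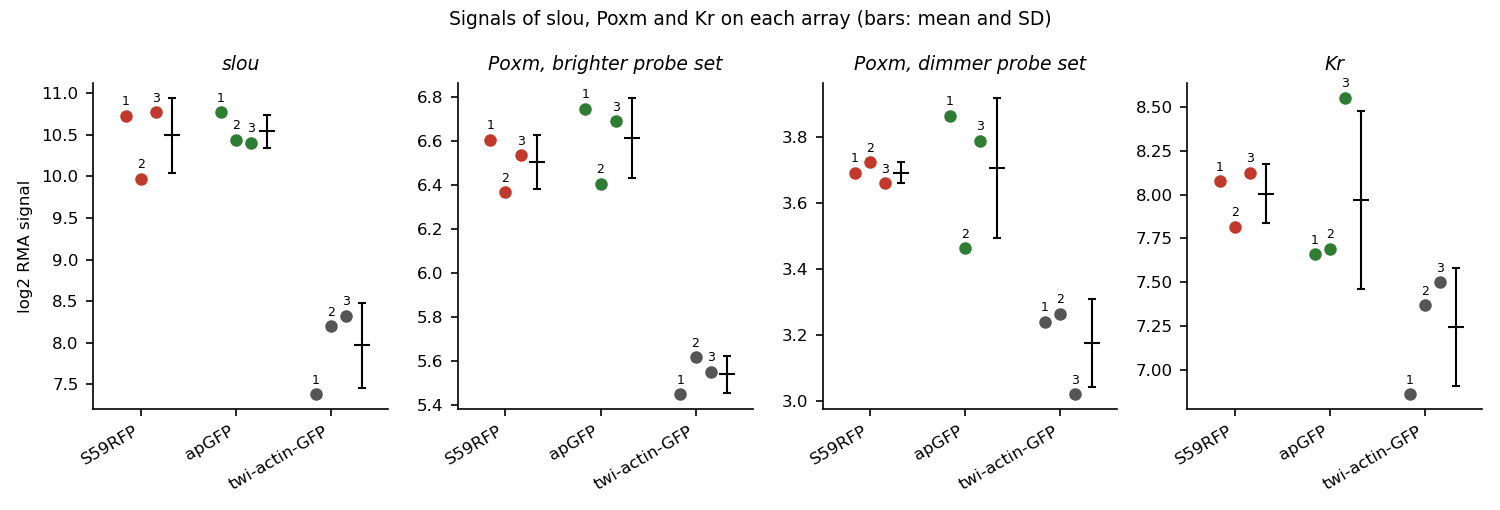
Log2 RMA signal of slou, Poxm (2 probe sets) and Kr on each array, with the replicate number above each point, and group mean and SD as black bars (n = 3 per group). The axes differ between panels and do not start at 0. In each panel the S59RFP and apGFP points lie above all twi-actin-GFP points, with the narrowest gap for Kr, where apGFP replicate 3 stands apart at 8.55.

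Pox meso was higher on both muscle reporters by about a doubling. Its brighter probe set (1637078_a_at) read 6.60, 6.37 and 6.53 on S59RFP, 6.74, 6.40 and 6.69 on apGFP, and 5.45, 5.62 and 5.55 on twi-actin-GFP. The 6 muscle reporter arrays all lay above the twi-actin-GFP arrays, by 0.75 at the narrowest. Mean levels were 6.50 ± 0.12 on S59RFP, 6.61 ± 0.18 on apGFP and 5.54 ± 0.08 on twi-actin-GFP (SD, n = 3 each).

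Poxm rose by 0.96 ± 0.12 on S59RFP (SE, 1.95-fold, 95% interval 1.62 to 2.34, limma, adjusted p = 0.000449) and by 1.07 ± 0.12 on apGFP (2.10-fold, 95% interval 1.75 to 2.53, limma, adjusted p = 0.000244). Between the muscle reporters the difference S59RFP minus apGFP was -0.11 (95% interval -0.37 to 0.15, limma, adjusted p = 0.994). Without S59RFP replicate 2 and apGFP replicate 3 Poxm rose by 1.03 on S59RFP and 1.04 on apGFP. The difference between the reporters was then -0.0045. The Poxm values varied less between replicates than those of slou or Kr, with SDs of 0.08 to 0.18, against 0.20 to 0.51 for slou and 0.17 to 0.50 for Kr.

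The other Poxm probe set (1633922_at) was dim, with values near the lower quartile of the arrays. It read 3.69, 3.72 and 3.66 on S59RFP, 3.87, 3.46 and 3.79 on apGFP, and 3.24, 3.26 and 3.02 on twi-actin-GFP. The direction was the same as that of the brighter probe set, with a rise of 0.52 ± 0.12 on S59RFP (limma, adjusted p = 0.016) and 0.53 ± 0.12 on apGFP (limma, adjusted p = 0.0141). Leaving out twi-actin-GFP replicate 3 ended both calls (adjusted p = 0.0681 and 0.0613), and leaving out apGFP replicate 1 ended that on apGFP (adjusted p = 0.0557). With the probe sets averaged, the Poxm difference was 0.74 on S59RFP and 0.80 on apGFP, and both calls stood.

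Krüppel transcripts lay higher on both muscle reporters by a difference that missed the threshold. Kr stood at 8.08, 7.82 and 8.12 on S59RFP, at 7.66, 7.69 and 8.55 on apGFP, and at 6.87, 7.37 and 7.50 on twi-actin-GFP. No muscle reporter array overlapped with a twi-actin-GFP array, but the narrowest gap was 0.32 for S59RFP and 0.16 for apGFP. Means were 8.01 ± 0.17 on S59RFP, 7.97 ± 0.50 on apGFP and 7.25 ± 0.34 on twi-actin-GFP (SD, n = 3 each).

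The Kr difference from twi-actin-GFP was 0.76 ± 0.26 on S59RFP (SE, 1.69-fold, 95% interval 1.13 to 2.54, limma, adjusted p = 0.0634) and 0.72 ± 0.26 on apGFP (1.65-fold, 95% interval 1.10 to 2.48, limma, adjusted p = 0.0801). Both folds also fell short of the study's own fold threshold of 1.7. The apGFP group was uneven for this gene, with replicate 3 the highest of all 9 arrays, and without that array the apGFP difference was 0.43 (adjusted p = 0.175). Omission of the same array brought the S59RFP comparison past the threshold at an unchanged difference of 0.76 (adjusted p = 0.017). Between the muscle reporters the difference S59RFP minus apGFP was 0.04 (95% interval -0.55 to 0.62, limma, adjusted p = 0.996). Without S59RFP replicate 2 and apGFP replicate 3 Kr differed from twi-actin-GFP by 0.85 on S59RFP and 0.43 on apGFP. The difference S59RFP minus apGFP was then 0.42 ± 0.19, above the 0.04 of all arrays, and was not called.

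**Figure D2:**
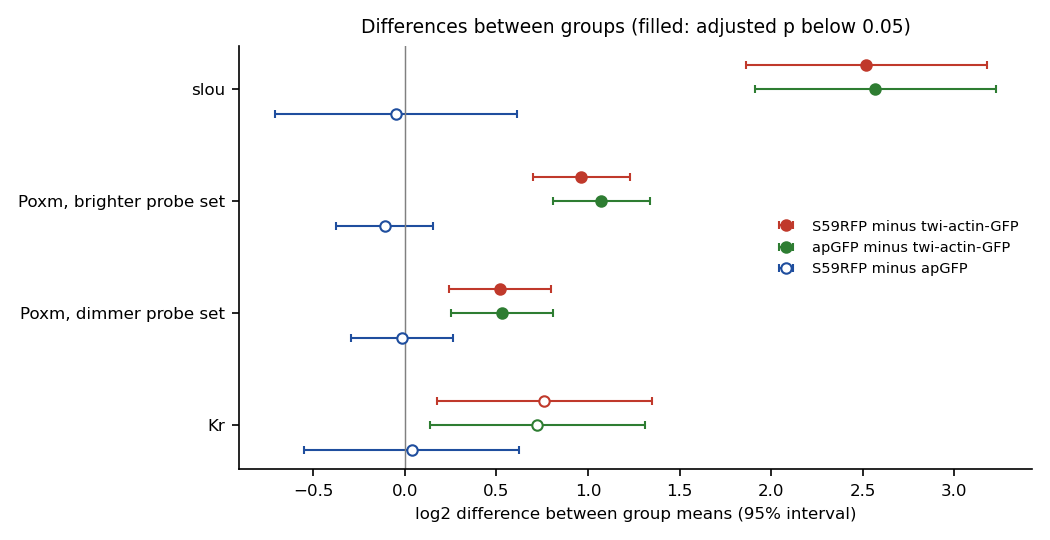
Differences between group means on the log2 scale for the 4 probe sets, with 95% intervals from the limma fit. Filled points passed an adjusted p of 0.05. The slou and Poxm points against twi-actin-GFP are filled, those of Kr are open at 0.76 and 0.72, and every S59RFP minus apGFP interval includes 0.

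In total 3 of the 4 probe sets, for 2 of the 3 genes, rose on each muscle reporter. Over all probe sets 24.1% changed on S59RFP, where 11.1% rose and 12.9% fell, and 21.9% changed on apGFP, where 9.78% rose and 12.2% fell (limma, adjusted p below 0.05). The balance of rises and falls depended on the setting: after a further quantile normalization 2265 probe sets rose and 1876 fell on S59RFP, and 2062 rose and 1846 fell on apGFP. Without S59RFP replicate 2 and apGFP replicate 3, 3383 rose and 2772 fell on S59RFP, and 3272 rose and 2696 fell on apGFP. All 4 member probe sets had groups that did not overlap in both comparisons. Such a separation upward was found for 29.4% of all probe sets on S59RFP and 31% on apGFP, so that it is a weak criterion here. Between S59RFP and apGFP limma called 0 of 16377 probe sets, 430 had an unadjusted p below 0.05 (2.63%), and 11 (0.0672%) passed the study's threshold of a 1.7-fold change at an unadjusted p below 0.05. None of the 4 member probe sets was among the 430.

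In order of level, slou and Poxm stood highest on apGFP, then S59RFP, then twi-actin-GFP, and Kr stood highest on S59RFP, then apGFP, then twi-actin-GFP. The first neighbours in each order did not differ beyond their spread. The step down to twi-actin-GFP exceeded it for slou and Poxm and missed the threshold for Kr. Of the twi-actin-GFP arrays replicate 1 was the lowest for slou, for the brighter Poxm probe set and for Kr.

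Other muscle identity factors went both ways. Of 27 further listed factors 21 had a probe set of their own. On S59RFP 3 of these rose and 7 fell, with 11 not passing, and their median difference was -0.10 against 0.13 over all probe sets. On apGFP 2 rose and 7 fell, with 12 not passing, and the median was -0.21 against 0.11. The rises, 3 and 2 of 21, were set against 11.1% of all probe sets on S59RFP and 9.78% on apGFP, and are read as no more than that background. The falls, 7 of 21 on each, were set against 12.9% on S59RFP and 12.2% on apGFP. A closer background is the 10563 genes, each represented, as the listed factors are, by its probe set with the highest mean. Of these 11.3% rose and 17.3% fell on S59RFP, and 10.9% rose and 16.3% fell on apGFP. Their median difference was 0.08 on each. Omission of S59RFP replicate 2 and apGFP replicate 3 gave 4 rises and 10 falls on S59RFP and 4 rises and 9 falls on apGFP.

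Among the increases ap itself rose by 1.65 ± 0.32 on S59RFP and 1.89 ± 0.32 on apGFP (limma, adjusted p = 0.00623 and 0.00299). It was highest on S59RFP replicate 2 (9.16) and apGFP replicate 3 (9.76), while the 4 remaining arrays of both reporters read 8.45 to 8.70. Without those 2 arrays ap was 1.44 higher on S59RFP and 1.5 higher on apGFP. Cells of apGFP were sorted by a reporter with ap sequence, so the ap rise on apGFP, counted above, is not independent of the sort. The T-box gene mid rose by 0.91 ± 0.22 on S59RFP and 1.12 ± 0.22 on apGFP (adjusted p = 0.0167 and 0.00612), and the S59RFP call ended without twi-actin-GFP replicate 2 (adjusted p = 0.0539) or replicate 3 (adjusted p = 0.0561). The homeobox gene Ptx1, which is active in ventral muscles, rose by 0.46 ± 0.14 on S59RFP (adjusted p = 0.0457) and differed by 0.32 on apGFP (adjusted p = 0.139). Its S59RFP call held only without S59RFP replicate 1 or replicate 2 and ended in each other omission of 1 array, with an adjusted p of up to 0.145.

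Several decreases were larger than any of these increases. The gene tey, which acts as a repressor in a ventral muscle, fell, with differences of -3.05 ± 0.21 on S59RFP and -3.33 ± 0.21 on apGFP (limma, adjusted p = 2.23e-05 and 1.54e-05). The LIM-homeodomain genes Lim3 and tup fell as well, with differences of -2.84 and -1.94 on S59RFP and of -2.99 and -1.96 on apGFP. On S59RFP the remaining decreases were those of eya (-1.62), which encodes a transcriptional coactivator, the Iroquois gene mirr (-1.26), the ladybird gene lbl (-0.94) and the T-box gene H15 (-0.77). On apGFP the same genes differed by -1.52, -1.41, -0.86 and -0.83. The mean level of Lim3 was 4.92 on S59RFP and 4.76 on apGFP, close to the array medians, against 7.76 on twi-actin-GFP. The Iroquois genes ara and caup and the homeobox gene lms did not pass, with SEs of 0.81 to 1.34, and all 3 stood far higher on S59RFP replicate 2 and apGFP replicate 3 than on the other muscle reporter arrays. The gene caup read 5.86, 9.95 and 5.99 on S59RFP, 5.49, 7.25 and 10.32 on apGFP, and 7.98, 8.71 and 8.59 on twi-actin-GFP. The gene ara reached 9.16 and 9.50 on these 2 arrays, where the 4 remaining arrays of both reporters read 6.06 to 7.07, and lms reached 8.28 and 8.53, against 5.69 to 6.45. The myogenic bHLH gene nau, which acts with identity factors in several muscles, differed by 0.29 on S59RFP and -0.29 on apGFP (adjusted p = 0.692 and 0.714).

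**Figure D3:**
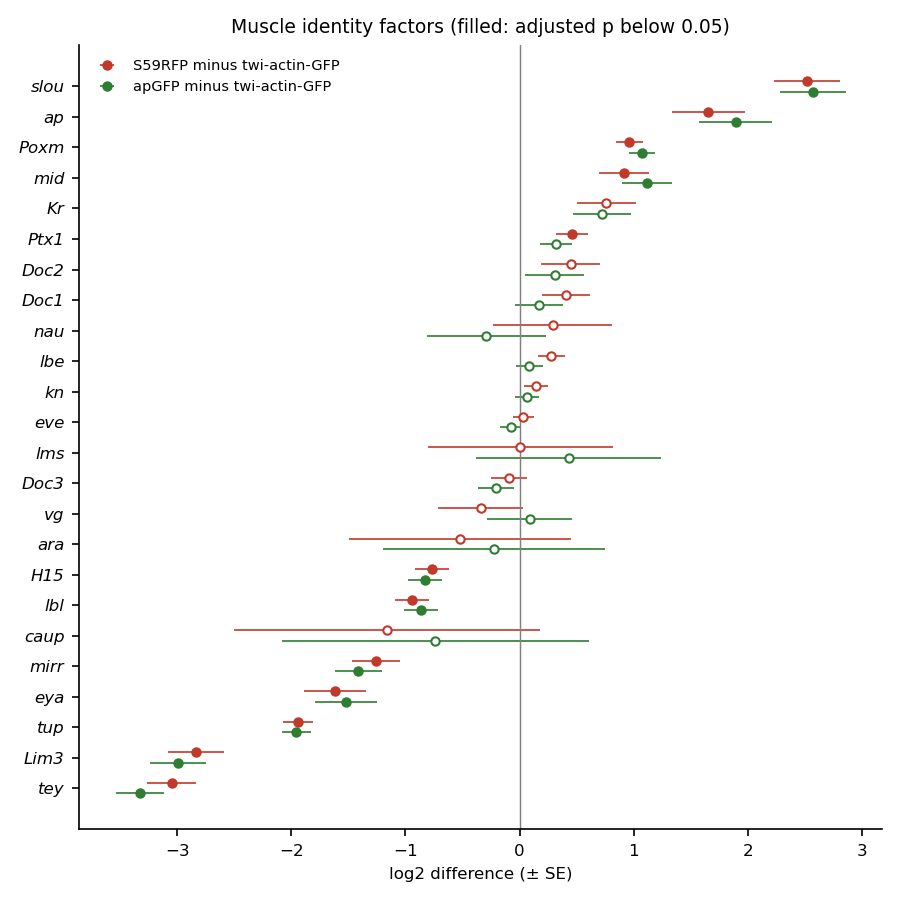
Differences from twi-actin-GFP on the log2 scale for slou, Poxm, Kr and the 21 other measured identity factors, on S59RFP (red) and apGFP (green), with SE bars. Filled points passed an adjusted p of 0.05, and genes are ordered by the S59RFP difference. The slou points lie at the top near 2.5 and those of tey at the bottom near -3.05 and -3.33.

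Relatives of each member by protein family were read next. For the NK, Pax, gap and asymmetric division lists the shares over all 10563 genes stand beside the counts. These were 11.3% higher and 17.3% lower on S59RFP, and 10.9% higher and 16.3% lower on apGFP. In the NK homeobox family of slou 8 other genes were measured. On S59RFP 3 rose and 2 fell, and on apGFP 1 rose and 4 fell, with medians of -0.05 and -0.32. NK7.1 rose by 2.31 ± 0.25 on S59RFP and 2.72 ± 0.25 on apGFP (limma, adjusted p = 0.000227 and 9.05e-05), to 10.15 on S59RFP and 10.56 on apGFP, against 7.84 on twi-actin-GFP. The Nkx2.1 relative scro fell by 2.11 ± 0.24 on S59RFP and fell by 2.17 ± 0.24 on apGFP (adjusted p = 0.000294 and 0.000253). The Nkx6 relative HGTX rose by 0.58 ± 0.09 on S59RFP (adjusted p = 0.00219) and differed by 0.29 on apGFP (adjusted p = 0.0603), and lbl fell on both as given above. Both genes were dim. HGTX had means of 4.51 on S59RFP, 4.21 on apGFP and 3.92 on twi-actin-GFP, near or below the array medians. Means of lbl were 3.94 on S59RFP and 4.02 on apGFP, below the medians, and 4.88 on twi-actin-GFP.

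Further NK calls lay close to the threshold. C15 rose by 0.50 on S59RFP (adjusted p = 0.0231), a call that ended without S59RFP replicate 1, twi-actin-GFP replicate 1 or twi-actin-GFP replicate 3 (adjusted p of up to 0.0879), and differed by 0.28 on apGFP. The visceral mesoderm gene bap fell by 0.72 on apGFP (adjusted p = 0.0499), a call that held only without apGFP replicate 3 or S59RFP replicate 2 among the omissions of 1 array (adjusted p of up to 0.15). On S59RFP bap differed by -0.37, and by 0.0078 after a further quantile normalization. B-H1 fell by 0.78 on apGFP (adjusted p = 0.0476), a call that held only without S59RFP replicate 2 or twi-actin-GFP replicate 1 (adjusted p of up to 0.151), and differed by -0.69 on S59RFP. Its means, 3.75 on S59RFP, 3.66 on apGFP and 4.44 on twi-actin-GFP, were below the array medians. With S59RFP replicate 2 and apGFP replicate 3 left out, the NK family had 3 genes called higher and 3 lower on each.

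In the Pax family of Poxm 8 other genes were measured, and 2 rose and 1 fell on each muscle reporter, with medians of 0.33 on S59RFP and 0.26 on apGFP. Both increases were gooseberry genes, Pax genes of segment polarity and of the nervous system. The gene gsb rose by 2.13 ± 0.25 on S59RFP and by 2.13 ± 0.25 on apGFP (limma, adjusted p = 0.000362 and 0.000361), with 7.68, 6.78 and 7.74 on S59RFP, 7.51, 7.43 and 7.27 on apGFP, and 5.0, 5.34 and 5.47 on twi-actin-GFP. Its neighbour gsb-n rose by 1.93 ± 0.29 on S59RFP and 2.26 ± 0.29 on apGFP (adjusted p = 0.00155 and 0.000632). For both genes S59RFP replicate 2 was the lowest muscle reporter array, as it was for slou. The Pax2 relative sv fell by 0.54 on S59RFP (adjusted p = 0.0473) and 0.85 on apGFP (adjusted p = 0.00656). Its S59RFP call held only without S59RFP replicate 2 or twi-actin-GFP replicate 1 (adjusted p of up to 0.155). The gene was dim, with means of 3.38 on S59RFP, 3.07 on apGFP and 3.92 on twi-actin-GFP, all below the array medians. The closest paralogue in name, Poxn, differed by 0.11 on S59RFP and 0.07 on apGFP (adjusted p = 0.553 and 0.757). The Pax6 gene toy, uncalled at an SE of 1.50, read 9.08, 4.20 and 8.99 on S59RFP, 9.11, 8.77 and 4.52 on apGFP, and 6.49, 6.27 and 6.30 on twi-actin-GFP, so that S59RFP replicate 2 and apGFP replicate 3 lay on the other side of twi-actin-GFP from the remaining muscle reporter arrays. The Pax family had 3 genes called higher and 1 lower on each when S59RFP replicate 2 and apGFP replicate 3 were left out.

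Among the gap genes, the group in which Kr was first known, 6 others were measured, and 1 rose and 2 fell on each muscle reporter. Their medians were 0.12 on S59RFP and 0.17 on apGFP. The zinc finger gene hb rose by 2.35 ± 0.25 on S59RFP and 2.55 ± 0.25 on apGFP (limma, adjusted p = 0.000214 and 0.000136). It stood at 8.25, 7.69 and 8.41 on S59RFP, at 8.15, 8.03 and 8.77 on apGFP, and at 5.57, 5.69 and 6.05 on twi-actin-GFP, with no overlap between the muscle reporters and twi-actin-GFP. The nuclear receptor genes kni and knrl fell, with differences of -1.32 and -1.54 on S59RFP and of -1.40 and -1.5 on apGFP (adjusted p between 0.00504 and 0.0217). The kni calls ended without twi-actin-GFP replicate 2 or replicate 3, and on apGFP also without apGFP replicate 1 or replicate 3 (adjusted p of up to 0.0681 on S59RFP and 0.0606 on apGFP). Differences for gt, tll and hkb were between 0.07 and 0.37 and did not pass. Omission of S59RFP replicate 2 and apGFP replicate 3 gave 2 gap genes called higher and 2 lower on S59RFP, and 3 higher and 2 lower on apGFP.

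Of 11 listed genes of the asymmetric divisions that part sister founder cells, 8 were measured. On S59RFP 2 rose and 1 fell, with a median of 0.26, and on apGFP 2 rose and 2 fell, with a median of 0.43. The Notch inhibitor gene numb fell by 1.13 ± 0.17 on S59RFP and fell by 1.18 ± 0.17 on apGFP (limma, adjusted p = 0.00181 and 0.00136). The ubiquitin ligase gene neur, which acts on the Notch ligand Delta, rose by 0.91 ± 0.17 on S59RFP and 1.08 ± 0.17 on apGFP (adjusted p = 0.00556 and 0.0022). The gene spdo, whose product acts with Notch in such divisions, rose by 0.80 ± 0.21 on S59RFP and 0.91 ± 0.21 on apGFP (adjusted p = 0.0282 and 0.0159). Its S59RFP call ended without S59RFP replicate 1 or 3 or any single twi-actin-GFP array (adjusted p of up to 0.0942), and its apGFP call without apGFP replicate 1 or twi-actin-GFP replicate 2 (adjusted p of up to 0.0624). The cortical polarity gene l(2)gl fell by 0.30 on apGFP (adjusted p = 0.0358), a call that held only without apGFP replicate 3 or S59RFP replicate 2 (adjusted p of up to 0.136). Without S59RFP replicate 2 and apGFP replicate 3 the list had 5 genes called higher and 1 lower on S59RFP, and 4 higher and 2 lower on apGFP.

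**Figure D4:**
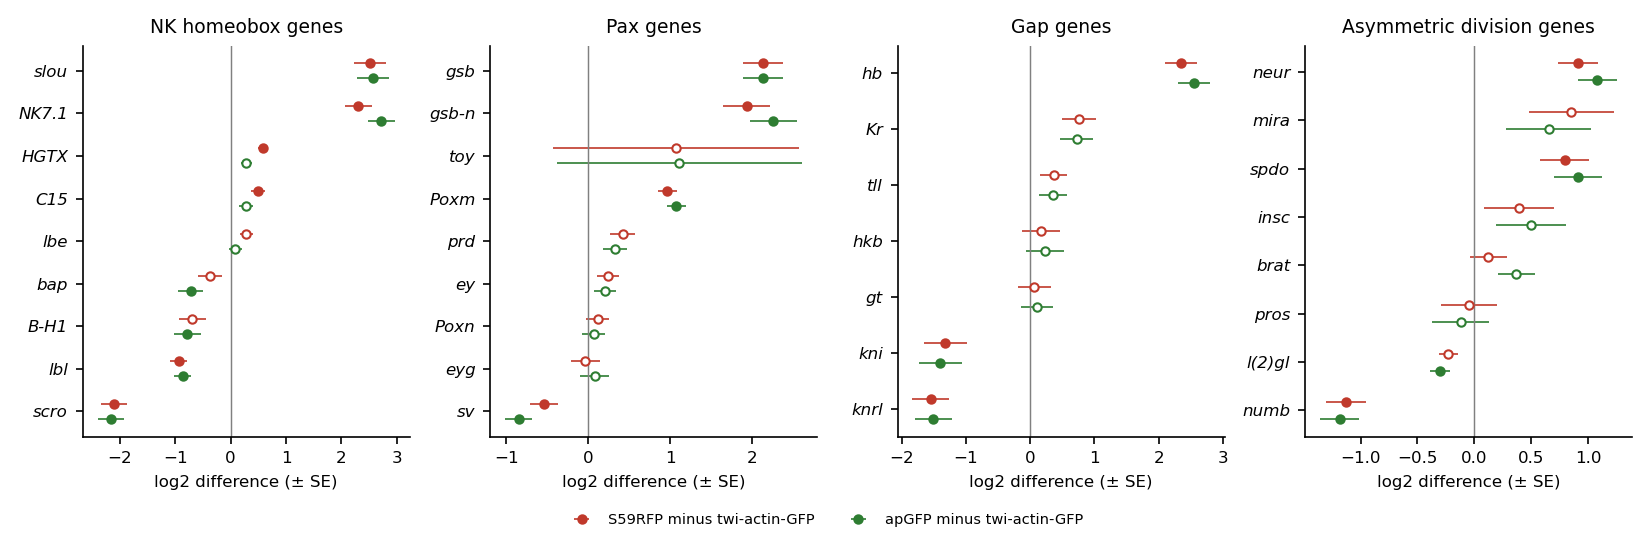
Differences from twi-actin-GFP on the log2 scale, with SE bars, for the measured NK homeobox, Pax, gap and asymmetric division genes on S59RFP (red) and apGFP (green). Filled points passed an adjusted p of 0.05. NK7.1, gsb, gsb-n and hb lie near or above 2, while scro, kni, knrl and numb lie below -1.

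The genes whose profiles were most like each member were found by the root mean square difference over the 9 arrays, after each gene was centred on its own mean. Pearson's r over the 9 arrays is given as a description only, because all these genes share the step between twi-actin-GFP and the muscle reporters. For slou the closest were CG42458 (0.225, r = 0.989), gsb (0.244, r = 0.993), NK7.1 (0.276, r = 0.975), JhI-21 (0.298, r = 0.973), an amino acid transporter gene, and hb (0.309, r = 0.969). The median distance of all genes from slou was 1.22 and only 2 genes lay within 0.25. This distance is not scaled by the size of a gene's changes. The root mean square spread of slou itself over the 9 arrays was 1.25. Each of the 5 rose on both muscle reporters, by 2.13 to 2.61 on S59RFP and 2.13 to 2.75 on apGFP. This follows from their choice by likeness to slou on these same arrays and is no separate result.

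For Poxm the closest were CG2617 (0.0715, r = 0.990), CG13010 (0.0888, r = 0.987), CG33506 (0.103, r = 0.978), Him (0.106, r = 0.977), which encodes an inhibitor of muscle differentiation in myogenic progenitors, and Wdr33 (0.108, r = 0.976), which encodes a factor of mRNA 3′ end formation. Here 330 genes lay within 0.25, but the spread of Poxm itself was 0.495 and the median distance of all genes from it 0.495. The counts within 0.25 therefore cannot be compared between members as a measure of how common a profile is. For Kr they were Pino (0.169, r = 0.954), PhKgamma (0.182, r = 0.930), the catalytic subunit gene of phosphorylase kinase, Ctns (0.187, r = 0.914), the gene of a lysosomal cystine transporter, Gnptab (0.189, r = 0.925) and CG11600 (0.195, r = 0.917), with 56 genes within 0.25. The spread of Kr itself was 0.458 and the median distance of all genes from it 0.478. Kr and its nearest genes had their highest value on apGFP replicate 3.

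Between the members the distance was 0.771 for slou and the brighter Poxm probe set (r = 0.975), 0.918 for slou and Kr (r = 0.806) and 0.298 for Poxm and Kr (r = 0.808). Without S59RFP replicate 2 and apGFP replicate 3 only CG42458 of the 5 genes stayed among the nearest to slou, and none of the 5 did for Poxm or Kr. After a further quantile normalization 3 stayed for slou (CG42458, gsb and NK7.1), 2 for Poxm and 3 for Kr.

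**Figure D5:**
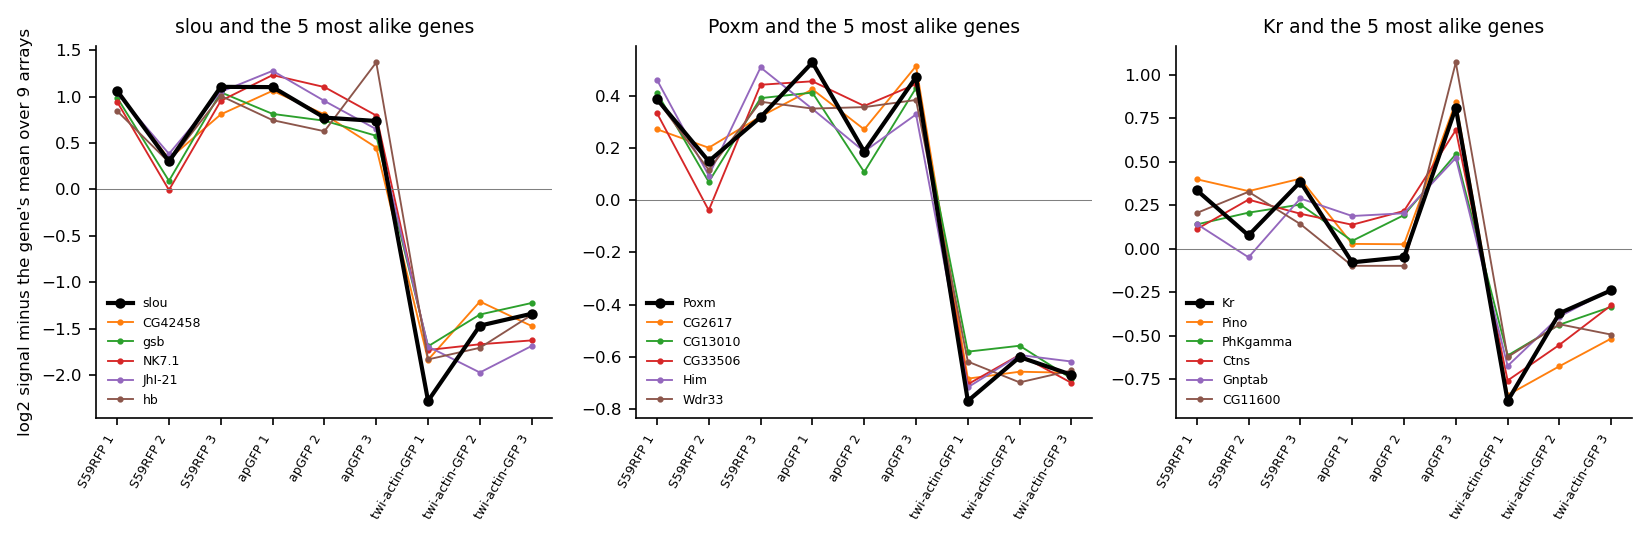
Log2 signal of each member (black) and its 5 most alike genes on each array, centred on the gene's mean over the 9 arrays; lines join the values of a gene and imply no order of replicates. The step between the muscle reporters and twi-actin-GFP runs through all panels, S59RFP replicate 2 is the lowest muscle reporter array in the slou panel, and apGFP replicate 3 is the highest in the Kr panel.

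Since slou, Kr, gsb and hb are active in the nervous system as well as in other tissues, markers of cell types that the sorts could hold were read on the same arrays. Over all 10563 genes 11.3% rose and 17.3% fell on S59RFP, and 10.9% rose and 16.3% fell on apGFP. Of 7 measured neuron markers 2 rose on S59RFP, and 2 rose and 1 fell on apGFP. Mean levels over the list were 7.76 to 8.06 on S59RFP, 7.76 to 8.00 on apGFP and 7.65 to 7.70 on twi-actin-GFP. The median difference over the list was 0.13 on S59RFP and -0.04 on apGFP, against 0.08 on each over all genes. The marker that fell was fne (-0.70, limma, adjusted p = 0.0457), which encodes an RNA-binding protein of the Elav family. Among omissions of 1 array its call held only without S59RFP replicate 2 (adjusted p of up to 0.124). With S59RFP replicate 2 and apGFP replicate 3 left out, 3 neuron markers were called higher and 1 lower on S59RFP, and 3 higher and 2 lower on apGFP. The cadherin gene CadN rose by 1.55 ± 0.20 on S59RFP and 1.74 ± 0.20 on apGFP (limma, adjusted p = 0.00074 and 0.000379), while the synaptic genes nSyb and brp differed by 0.13 and -0.06 on S59RFP and by -0.04 and -0.14 on apGFP. The neuronal RNA-binding protein gene elav rose by 0.65 ± 0.19 on S59RFP and by 0.65 ± 0.19 on apGFP (adjusted p = 0.0389 and 0.0397). The S59RFP call of elav held only without apGFP replicate 2, apGFP replicate 3 or S59RFP replicate 2, and its apGFP call only without apGFP replicate 3 or any single S59RFP array (adjusted p of up to 0.125 and 0.13). Whether these markers, CadN among them, are limited to neurons in the sorted cells was not tested. RMA has no true zero, so that no marker can be said to be absent, and the part of neurons in the levels of the members was not tested.

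Other markers set the groups apart more widely. Their counts stand beside the same shares of all genes, 11.3% higher and 17.3% lower on S59RFP and 10.9% higher and 16.3% lower on apGFP. The 6 measured markers of fusion-competent myoblasts all rose on both muscle reporters, with mean levels of 10.78 to 11.62 on S59RFP, 11.19 to 11.76 on apGFP and 8.20 to 9.13 on twi-actin-GFP. Within the muscle reporters S59RFP replicate 2 was lowest for this list, as it was for slou. Of 3 founder cell markers 1 rose on each, rols (0.74 on S59RFP and 0.78 on apGFP), and mean levels of 8.75 to 8.91 on S59RFP and 8.50 to 8.73 on apGFP were set against 7.87 to 8.61 on twi-actin-GFP. The lowest twi-actin-GFP array of the founder list, replicate 1, was also the lowest for slou and Kr, and it was the highest twi-actin-GFP array of the fusion-competent list. Most other lists held genes that fell on both reporters: 5 of 5 measured heart markers, 4 of 5 midgut, 5 of 8 blood cell, 2 of 3 fat body, 3 of 3 tracheal, 4 of 5 epidermal, 3 of 6 Malpighian tubule and hindgut and 3 of 5 amnioserosa markers. Calls in the other direction in these lists were the blood cell gene Hml (0.55 on S59RFP and 0.54 on apGFP), the epidermal gene trn (1.11 on S59RFP and 1.01 on apGFP) and, on S59RFP alone, the amnioserosa genes zen (0.41) and C15 (0.50), whose S59RFP minus apGFP difference was not called. Glial markers fell in 3 of 7 cases on S59RFP and 4 on apGFP, and visceral mesoderm markers in 1 of 2 and 2 of 2. Of the glial calls, wrapper on both reporters and moody on S59RFP held in every omission of 1 array. The repo calls held in 5 of 9 omissions on S59RFP and 3 on apGFP, and ended after a further quantile normalization. On apGFP moody held in 3, loco in 4 and bap in 2 of 9. The tubule and hindgut gene cad held in 3 of 9 omissions on S59RFP and 5 on apGFP. Transcripts of twi, the gene whose promoter drives the comparison transgene, stood at 9.29, 9.63 and 9.29 on S59RFP and at 9.37, 8.95 and 9.85 on apGFP, against 7.19, 6.99 and 7.03 on twi-actin-GFP. The part of any such difference in cell makeup in the results for slou, Poxm and Kr was not tested.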

How the data were processed

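The deposited table held log2 signals, 1 column per array and not pooled, which the authors made with RMA in Partek per the submitters' processing notes, which as used here give neither version nor settings. Values ran from 2.28 to 14.64 and entered the fit as deposited, unfiltered. Gene names came from the platform annotation: 11899 had 1 gene, 353 several and 4125 none listed. A gene with several probe sets (912 genes) was represented by that with the highest mean. Arrays were grouped by title.

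All 9 arrays entered 1 limma fit (limma 3.58.1, R 4.3.3) of 3 group means with moderated variances and no covariates. P-values were adjusted by Benjamini-Hochberg over all 16377 probe sets. Calls are those with an adjusted p below 0.05. A ± value is an SE unless marked SD. The number of arrays limits the precision: the median 95% half-width was 0.31. The code of the fit was tried on simulated arrays with independent noise and with shifts added to some probe sets in S59RFP. No simulated array diverged from its group, so the trial does not show how the fit behaves on these data.

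Members and gene lists were chosen with earlier results of these data known. Named were the members, called genes of the identity, NK, Pax, gap and asymmetric division lists, ap and twi, up to 4 markers per cell type, and the 5 genes nearest to each member. Beyond these, Hml, trn and zen were named because they were called against the direction of their lists. The calls of Hml, trn and zen were not followed under the alternatives. Genes named although not called were chosen after their values were seen. Alternatives were quantile normalization, a filter on dim probe sets, 2 groups only, other variance moderation, array weights, the replicate number as a block, the study's threshold and omission of arrays. The labels give no batch.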

Additional observations from a re-analysis of the deposited data

How the results depend on the processing

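The increases of slou and of the brighter Poxm probe set against twi-actin-GFP kept their direction and their call under every alternative run, 17 for slou and 18 for Poxm. The dimmer Poxm probe set lost its call in 2 of 16 alternatives on S59RFP and 3 of 16 on apGFP, among them the study's fold threshold of 1.7 on both. With 1 array left out, slou ranged from 2.23 to 2.78 on S59RFP and from 2.28 to 2.75 on apGFP, and Poxm from 0.91 to 1.03 and from 1.01 to 1.18. Kr kept its direction in both and passed the threshold in 6 of 17 alternatives on S59RFP: quantile normalization (1.05, adjusted p = 0.0122), S59RFP and twi-actin-GFP alone (0.76, adjusted p = 0.0355), array weights (0.75, adjusted p = 0.00203), the replicate block (0.76, adjusted p = 0.0416), omission of apGFP replicate 3 (0.76) and omission of S59RFP replicate 2 and apGFP replicate 3 together (0.85, adjusted p = 0.00478). On apGFP it passed in 1 of 17, quantile normalization (0.93, adjusted p = 0.0212). Omissions of 1 array gave 0.57 to 0.89 on S59RFP (adjusted p = 0.017 to 0.171) and 0.43 to 0.88 on apGFP (adjusted p = 0.0621 to 0.218). The cause was not tested.

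Between S59RFP and apGFP the sign of uncalled differences turned. For slou it was 0.011 with quantile normalization, 0.17 with array weights, 0.15 without S59RFP replicate 2 and apGFP replicate 3 together, and -0.19 to 0.21 with 1 array left out. Poxm gave 0.011 with array weights, and Kr -0.12 to 0.33 with 1 array left out. For Kr the difference was 0.42 without S59RFP replicate 2 and apGFP replicate 3 together. Of the named genes bap on S59RFP turned to 0.0078 with quantile normalization. With 1 array left out nau ranged from -0.15 to 0.73 on S59RFP and from -0.72 to 0.13 on apGFP, and it was 0.13 on apGFP without S59RFP replicate 2 and apGFP replicate 3 together.

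Counts of called probe sets moved more than the members. On S59RFP 3946 were called, 9228 with array weights (5830 higher and 3398 lower, against 1826 and 2120), 2247 by the study's threshold, 6155 without both divergent arrays, and 2453 (without twi-actin-GFP replicate 3) to 4968 with 1 array left out. On apGFP 3593 were called, 6028 with array weights, 2318 by the study's threshold, 5968 without both divergent arrays, and 2487 to 5462 (without S59RFP replicate 2) with 1 array left out. Between the reporters 0 were called by limma under every alternative and 11 by the study's threshold. Other identity factors called numbered 10 on S59RFP and 9 on apGFP, and 8 to 10 and 9 to 10 with 1 array left out.

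No label says that a replicate number is shared across transgenes. Deviations of same-numbered arrays from their group means correlated at -0.62 to 0.49, so the numbers were not taken to pair the arrays, and the block changed no other call of a member.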
